A study of Mus musculus with 21 samples.

Results

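The genes described here encode the proteins of the cytosolic ribosome and were followed in microglia sorted from the striatum of adult male mice. Members were the protein-coding genes whose symbol is Rpl or Rps followed by a digit, with Rpsa, Rplp0, Rplp1 and Rplp2 added, at a summed count of 100 or more over all libraries. Pseudogenes and the S6 kinase genes (Rps6k) were left out. The rule found 84 of the 55487 genes in the table: 31 proteins of the small subunit, 43 of the large subunit, the 3 stalk proteins, 6 paralogs or variant copies, and Rps19bp1, which encodes a protein that binds Rps19 and is not itself a ribosomal protein. Just outside the rule were Rpl3l, with a summed count of 1, and Rpl10l, with 0. Just inside it was Rpl39l, with a summed count of 198.

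The study asked how immune stress before birth alters the later response of microglia. The mice were born to dams whose immune system had been activated in pregnancy (maternal immune activation, MIA) or to control dams (CON in the labels). At 8 to 10 weeks of age they received an intraperitoneal injection of lipopolysaccharide (LPS), the cell wall component of Gram-negative bacteria, at 4500 endotoxin units per gram, or saline, and cells were collected 18 hours later. All striatum pieces collected from a brain were pooled. The sort kept living cells that were positive for CD11b and P2RY12, both carried by microglia, and low for CD45. The sources used here do not name the agent that activated the dams, the strain or the litters. The fit used 4 MIA LPS, 5 MIA saline, 5 control LPS and 6 control saline libraries. A sixth MIA saline library, which its title marks as excluded, did not enter the fit. One MIA LPS library, replicate 4, is the only library of batch 2, so the batch term took it up and the comparisons that involve MIA LPS rested on the 3 MIA LPS libraries of batch 1. The ID label holds a number that some libraries share, always within 1 maternal group. The labels do not say whether it marks a dam, a litter or something else, and the p-values take account only of the spread among these libraries.

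Each ribosomal subunit is a complex of ribosomal RNA and a full set of ribosomal proteins, most of them needed in a single copy per ribosome. The messenger RNAs of nearly all of these proteins begin with a run of pyrimidines, the 5′ terminal oligopyrimidine (TOP) motif, through which the kinase mTOR and the RNA-binding protein Larp1 set how well they are translated. In activated macrophages and microglia, protein synthesis supplies cytokines and other secreted proteins, and the transcript levels measured here do not show how much protein was made.

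Total counts in batch 1 ran from 13004152 to 17102859 in MIA LPS libraries, 10169023 to 15714029 in MIA saline, 9845771 to 18139513 in control LPS and 11874032 to 18990003 in control saline. A ribosomal RNA gene, CT010467.1, took 43.0% to 53.8% of the counts of these libraries. The 8 microglial markers summed to 3917 to 5885 counts scaled to a common library total (CPM) in MIA LPS libraries, 10562 to 14813 in MIA saline, 4724 to 6271 in control LPS and 11204 to 14844 in control saline, and 5 of the 8 fell with LPS in each maternal group. Neutrophil markers summed to 25.8 to 83.5 CPM in MIA LPS, 0 to 0.295 in MIA saline, 42.1 to 86.2 in control LPS and 0 to 16.0 in control saline. All 6 of them rose with LPS in MIA offspring and 4 of 6 in control offspring. Monocyte markers summed to 34.8 to 53.8, 3.15 to 6.80, 40.6 to 77.3 and 4.01 to 5.99 CPM in the same order of groups, with 5 of 6 higher and 1 of 6 lower after LPS in both. Of the 6 lymphocyte markers, Cd3e, Cd3g, Nkg7 and Trac had no count in the libraries of either LPS comparison. The part of these shifts in the changes described next was not tested. In bulk RNA, fewer cells of a type and less RNA per cell cannot be told apart.

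All 84 genes passed the expression filter. CPM of single members are scaled by edgeR's TMM factors, those of the cell type markers by total counts. Levels in saline libraries are given as CPM per kb of transcript, the mean of 11 saline libraries of batch 1, since levels of different genes can be compared only per length. The quartiles of the members were 123 and 291 CPM per kb and the median was 207. Rps4x, the X-linked small subunit protein, stood highest at 737 CPM per kb, followed by the stalk protein Rplp1 at 728 and by Rps14, a protein of the small subunit platform, at 564. Rpl10, a large subunit protein added late in assembly, stood at 489, and Rps12, a protein of the small subunit beak, at 480.2. Rps4x and Rplp1 did not differ beyond their spread. The lowest were Rpl39l at 0.727 CPM per kb, Rps27rt at 4.37, Rps19bp1 at 4.62, Rpl7l1 at 18.1 and Rps27l at 22.9, so every one of these 5 is a paralog, a variant copy or the binding protein. Rps20 stood next lowest at 28.1, computed with an annotated transcript of 3706 bases, far above the median of 680.5 over the members.

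Together the 84 genes took 4.59% to 5.04% of the counts outside ribosomal RNA and mitochondrial genes in MIA LPS libraries of batch 1, with a mean of 4.84% ± 0.232 (SD, n = 3), against 2.61% to 3.57% in MIA saline, with a mean of 3.15% ± 0.426 (SD, n = 5). In control LPS libraries the share was 3.73% to 4.90%, with a mean of 4.45% ± 0.480 (SD, n = 5), against 2.34% to 3.95% in control saline, with a mean of 2.91% ± 0.591 (SD, n = 6). The batch 2 MIA LPS library held 6.04% and the library titled excluded 3.25%. In percent of all counts the batch 2 library held 2.27%, against 2.21% to 2.22% in MIA LPS libraries of batch 1. It had counts for 12264 genes, against 17995 to 19243 in those libraries, and CT010467.1 took 58.1% of its counts. Its TMM factor was 0.731, against 0.886 to 1.04 in those libraries. The share of 6.04% and the CPM given below for the batch 2 library are to be read with these values. MIA LPS and MIA saline libraries did not overlap. In control offspring one saline library, replicate 5, lay above the lowest LPS library, replicate 2, and all other libraries were apart.

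**Figure D1:**
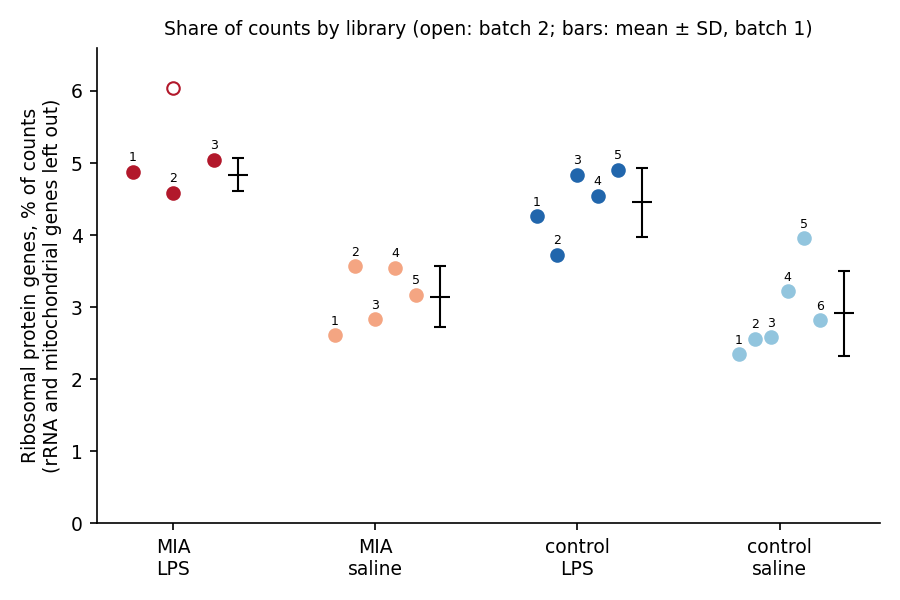
Share of counts taken by the 84 ribosomal protein genes in each library, in percent of counts outside ribosomal RNA and mitochondrial genes, by group, with replicate numbers. Bars give mean ± SD over batch 1 (4.84% in MIA LPS, 3.15% in MIA saline, 4.45% in control LPS, 2.91% in control saline) and the open point is the batch 2 library at 6.04%.

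Most ribosomal protein transcripts were higher after LPS than after saline in both maternal groups, and none was called lower. In MIA offspring 51 of 84 members were called higher and 0 lower (edgeR's quasi-likelihood test, Benjamini-Hochberg adjusted p under 0.05 over 14741 genes), where 20.8% of all genes tested were called higher, 18.3% lower and 39.1% in either direction. In control offspring 58 of 84 were called higher and 0 lower, where 23.3% of all genes tested were called higher, 21.3% lower and 44.6% in either direction. The median log2 fold change of the members was 0.61 in MIA offspring and 0.57 in control offspring, against 0.02 and 0.00 over all genes tested. It was above 0 in 83 of 84 members in each maternal group, against 50.8% of all genes in MIA offspring and 49.8% in control offspring. The quartiles of the members were 0.40 and 0.84 in MIA offspring and 0.43 and 0.77 in control offspring. Over all genes tested the quartiles were -0.56 and 0.55 in MIA offspring and -0.52 and 0.49 in control offspring. DESeq2 and limma-voom called 0 members lower as well. At an unadjusted p under 0.05 edgeR had 58 members in MIA offspring, where 46.8% of all genes reached it, and 63 in control offspring, where 51.0% did, and 0 of these members were lower.

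**Figure D2:**
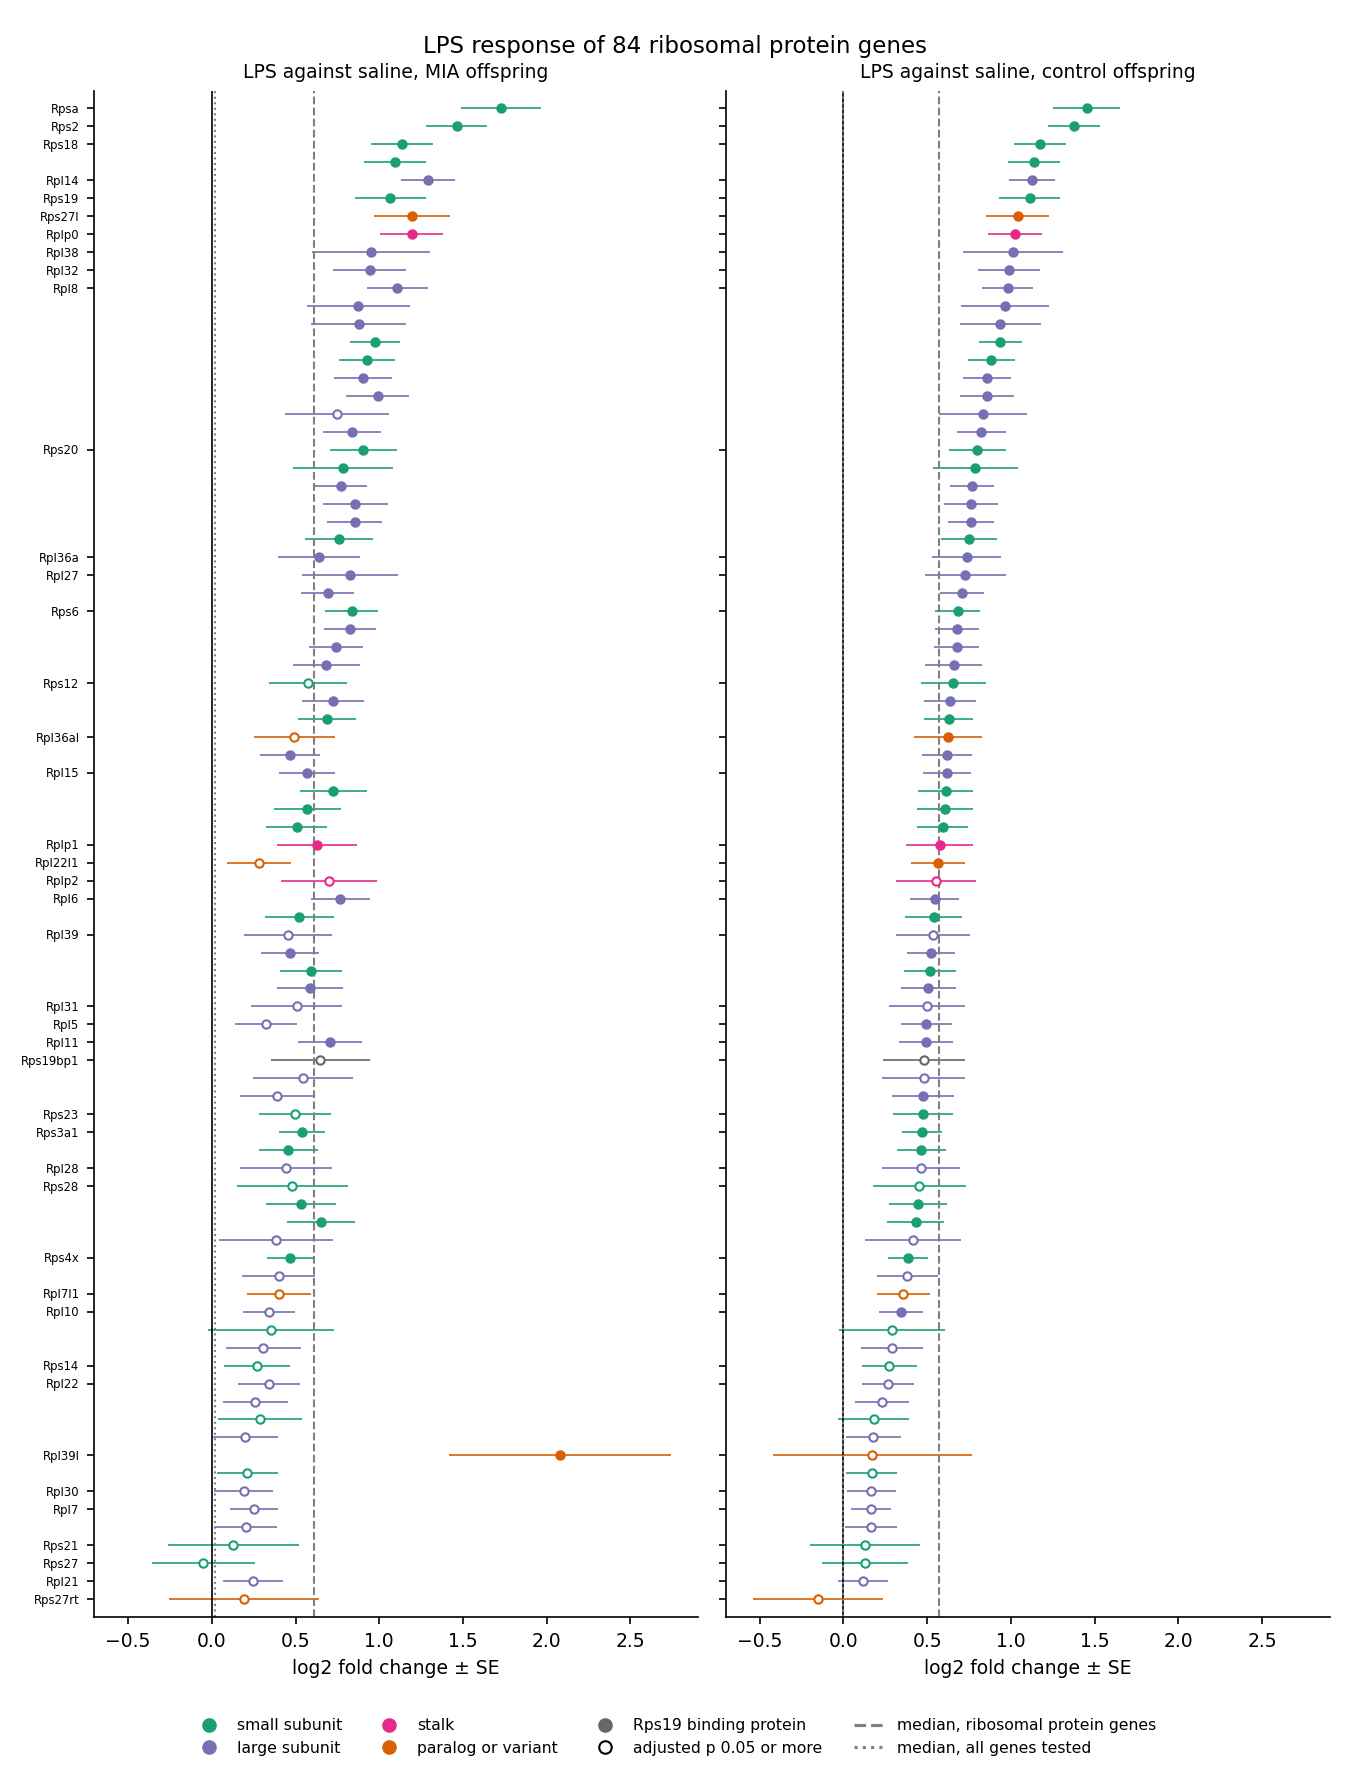
Log2 fold change ± SE of LPS against saline for the 84 genes in MIA offspring and in control offspring, ordered by the control value and coloured by role, with filled points for an adjusted p under 0.05 and names for members described in the text. Dashed lines are the medians of these genes (0.61 in MIA, 0.57 in control), which lie right of the dotted medians of all genes tested (0.02 in MIA, 0.00 in control).

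Both subunits took part. Of the small subunit proteins, 22 of 31 rose in MIA offspring, with a median log2 fold change of 0.57, and 24 of 31 in control offspring, with a median of 0.59. Of the large subunit proteins, 25 of 43 rose in MIA offspring, with a median of 0.64, and 29 of 43 in control offspring, with a median of 0.62. Counting members whose LPS libraries all lay above all saline libraries gave 56 of 84 in MIA offspring, where this held for 18.5% of all genes tested, and 21 of 84 in control offspring, where it held for 15.1%. Without control saline replicate 5, the count in control offspring was 49 of 84, where it held for 17.4% of all genes.

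Rpsa, a small subunit protein also described as a precursor of the laminin receptor, had the largest rise in control offspring and the largest but one in MIA offspring. It had 891, 354 and 744 CPM in MIA LPS libraries of batch 1 and 1030.2 in the batch 2 library, against 198, 282, 149.8, 193 and 179 in MIA saline libraries. In control offspring it had 633, 460.3, 649, 653 and 430.0 CPM in LPS libraries, against a lowest of 159, a median of 209 and a highest of 254 in the 6 saline libraries. No LPS library overlapped the saline libraries of its maternal group, and MIA LPS replicate 2 was the lowest of the LPS libraries. The log2 fold change was 1.73 ± 0.24 (SE) in MIA offspring (edgeR adjusted p = 2.54e-06) and 1.45 ± 0.20 in control offspring (edgeR adjusted p = 2.11e-06).

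Rps2, a small subunit protein at the mRNA entry channel, had 689, 377 and 586 CPM in MIA LPS libraries and 845 in the batch 2 library, against 185, 249, 161, 215 and 189 in MIA saline. After LPS, control offspring had 516, 386, 585, 541 and 408 CPM, against 159 to 218, with a median of 189, after saline. Here too no libraries overlapped, and Rps2 rose by a log2 fold change of 1.46 ± 0.18 in MIA offspring (edgeR adjusted p = 4.48e-07) and 1.37 ± 0.16 in control offspring (edgeR adjusted p = 6.02e-08).

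Rps18, which sits in the head of the small subunit, had 390.3, 314 and 380.4 CPM in MIA LPS libraries and 496 in the batch 2 library, against 131, 208, 137, 202 and 145 in MIA saline. It had 319, 258, 396, 357 and 321 CPM in control LPS libraries, against 116 to 198, with a median of 139, in control saline. The groups were apart in both comparisons, at a log2 fold change of 1.14 ± 0.18 in MIA offspring (edgeR adjusted p = 1.72e-05) and 1.17 ± 0.15 in control offspring (edgeR adjusted p = 7.07e-07). Other proteins of both subunits rose about as much. Rps19, a small subunit protein whose human gene is mutated in Diamond-Blackfan anaemia, stood at 1.07 and 1.11 in MIA and control offspring, Rpl14 at 1.29 and 1.13, and Rpl8, a protein next to the peptidyl transferase centre, at 1.11 and 0.98. Rpl38, a large subunit protein that mouse embryos need for translating Hox messenger RNAs, rose by 0.95 ± 0.35 in MIA offspring and 1.01 ± 0.30 in control offspring, with wider errors than the genes above. The MIA call of Rpl38 was lost on leaving out any 1 of MIA LPS replicates 2 and 3 and MIA saline replicates 1, 3, 4 and 5, at log2 fold changes of 0.79 to 0.99. It was also lost under RLE or upper quartile scaling, in limma-voom, with the ID number as a block and without the filter, at 0.87 to 0.95. Rpl32 rose by 0.94 ± 0.22 and 0.99 ± 0.18.

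**Figure D3:**
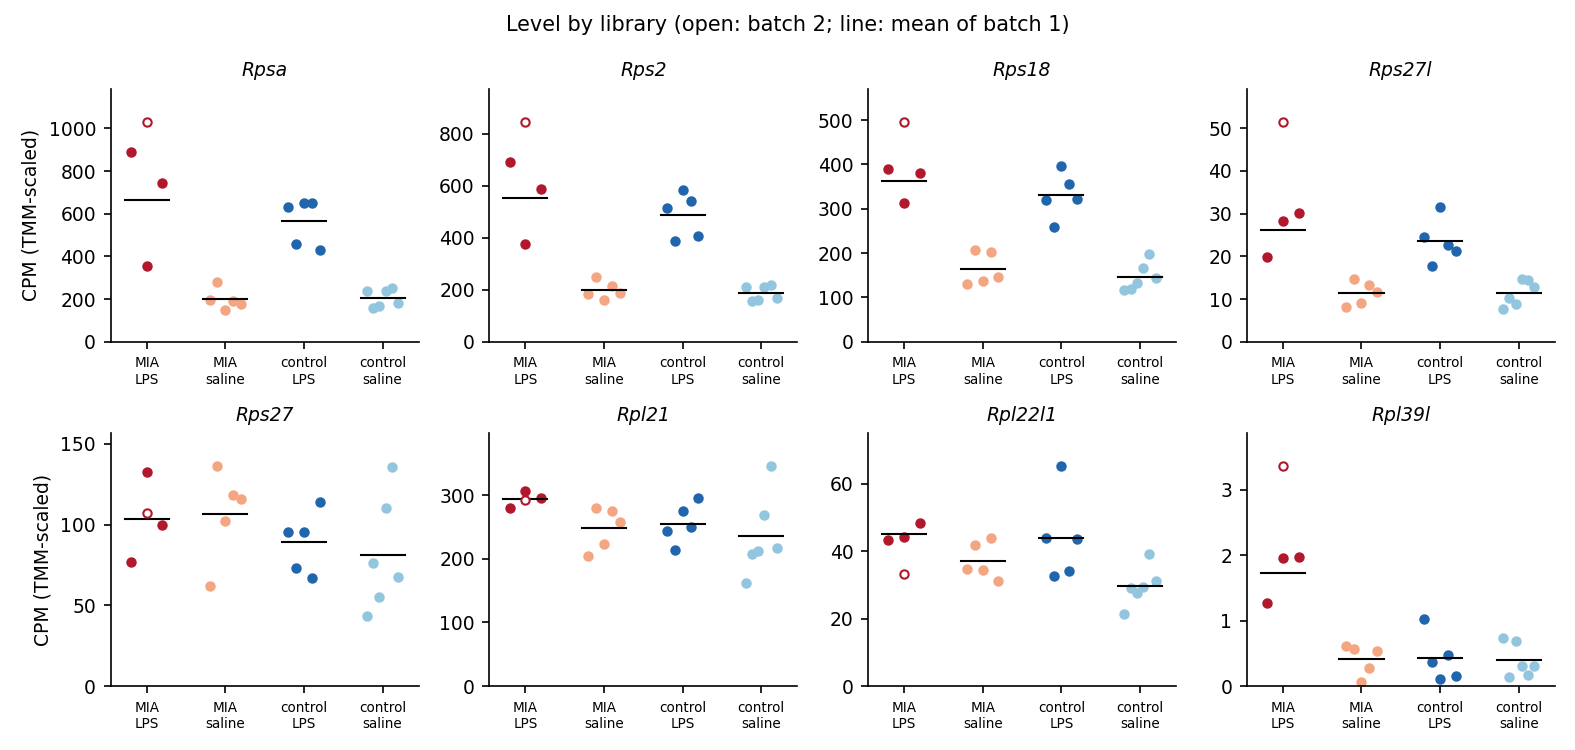
TMM-scaled CPM by library for 8 members, with groups left to right MIA LPS, MIA saline, control LPS and control saline, lines at batch 1 means and open points for the batch 2 library. Rpsa, Rps2, Rps18 and Rps27l show LPS libraries clear of saline libraries, Rps27 and Rpl21 show overlapping groups, and Rpl39l is high in the MIA LPS libraries, at 1.27 CPM or more.

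The stalk, through which elongation factors bind the large subunit, consists of Rplp0 at its base and the acidic proteins Rplp1 and Rplp2. Rplp0 rose by a log2 fold change of 1.19 ± 0.19 in MIA offspring, at 993 ± 289.7 CPM (SD, n = 3) after LPS against 434 ± 80.0 (SD, n = 5) after saline, and by 1.02 ± 0.16 in control offspring, at 828 ± 101 CPM (SD, n = 5) against 407 ± 74.7 (SD, n = 6). Rplp1 rose by 0.63 ± 0.24 in MIA offspring (edgeR adjusted p = 0.0398) and by 0.58 ± 0.20 in control offspring (edgeR adjusted p = 0.0226). It had 606, 507 and 648 CPM in MIA LPS libraries and 923 in the batch 2 library, against 289.6, 462, 313, 448 and 384 in MIA saline. In control offspring it had 514, 361, 570.0, 525 and 637 CPM after LPS, against 218 to 603, with a median of 304, after saline, so the control groups overlapped. Rplp2 was not called, at 0.70 ± 0.28 in MIA offspring (edgeR adjusted p = 0.0563) and 0.55 ± 0.24 in control offspring (edgeR adjusted p = 0.0655). The call of Rplp1 rested on single libraries and on the processing. It was lost in MIA offspring on leaving out any 1 of MIA LPS replicates 1 and 3 and MIA saline replicates 1, 3 and 5, at log2 fold changes of 0.53 to 0.63. In control offspring it was lost without control LPS replicate 3 or 5 or control saline replicate 2, at 0.49 to 0.52. With all libraries kept, the MIA call was also lost under RLE scaling, under upper quartile scaling and without the filter, and the control call without the filter.

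Rps4x, the member of highest level, moved less than most. It had 1056, 1018 and 1058 CPM in MIA LPS libraries and 997 in the batch 2 library, against 703, 889.9, 656, 811 and 710.4 in MIA saline, and 842, 829, 1044, 969.6 and 816 in control LPS against 576 to 776, with a median of 694, in control saline. The groups did not overlap, and it rose by 0.47 ± 0.14 in MIA offspring (edgeR adjusted p = 0.00905) and 0.39 ± 0.12 in control offspring (edgeR adjusted p = 0.00885).

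The promoter and first transcribed bases are shown for 5 members at both ends of the response, because the TOP motif and promoter elements are what the mRNAs of the family are known to share. The sequences are RefSeq windows of GRCm38.p6, from 40 bases before to 20 bases after an annotated transcript start, 5′ to 3′ on the gene's strand, and capitals mark the run nearest the start among runs of at least 8 pyrimidines that reach within 20 bases of it. They lie at chr9:120127726-120127785 on the plus strand (Rpsa), chr17:33955646-33955705 on the minus strand (Rps18), chr9:120571477-120571536 on the plus strand (Rpl14), chr9:66946046-66946105 on the plus strand (Rps27l) and chr3:90213629-90213688 on the minus strand (Rps27). Of the 2 windows listed for Rps27l, the one with a run is shown.
Rpsa: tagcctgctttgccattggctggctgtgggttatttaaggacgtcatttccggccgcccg
Rps18: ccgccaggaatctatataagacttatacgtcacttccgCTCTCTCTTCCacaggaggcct
Rpl14: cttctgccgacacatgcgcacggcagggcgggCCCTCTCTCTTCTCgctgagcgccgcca
Rps27l: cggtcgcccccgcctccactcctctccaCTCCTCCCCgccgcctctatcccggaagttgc
Rps27: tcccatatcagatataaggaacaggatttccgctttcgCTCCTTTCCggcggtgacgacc
The marked run started 2 bases before the annotated start in Rps18 and Rps27, 8 bases before it in Rpl14 and 12 bases before it in Rps27l, which holds another such run just upstream. Rps18 and Rps27 share this placement. Rps18 was called higher, and Rps27, measured with wider errors, was not called. Their responses were not compared with each other, and the part of the run in the response was not tested.

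RefSeq windows of 300 bases were listed for 64 of the 84 members. A run of at least 8 pyrimidines near the start was found in 33 of 64 members (51.6%), against 23.7% of the 27025 genes with a window. The search did not ask that the run begin at the first transcribed base, and it passed over shorter runs. It is therefore not a count of TOP motifs. Such a run was near the start in more of the called members than of the others. The counts were 25 of the 46 members called higher in control offspring (54.3%) and 8 of the 18 others (44.4%). CCGGAAG, the core of the motif bound by ETS family factors, stood on either strand in 26 of 64 members (40.6%), against 9.93% of all genes with a window, and in 18 of 46 called and 8 of 18 other members. TATAAA stood on either strand in 7 of 64 members (10.9%), against 15.7% of all genes. These are letter matches in annotated windows, were not tested, and can overlap each other's windows where a gene has more than 1.

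At the low end of the response, Rps27, a zinc finger protein of the small subunit, had 77.1, 133 and 99.8 CPM in MIA LPS libraries and 107 in the batch 2 library, against 62.1, 136, 102, 118 and 116 in MIA saline. Control LPS libraries had 95.1, 73.0, 95.4, 66.8 and 114 CPM, against 43.6 to 136, with a median of 71.7, after saline. The groups overlapped in both, and the log2 fold change was -0.05 ± 0.31 in MIA offspring (edgeR adjusted p = 0.916) and 0.13 ± 0.26 in control offspring (edgeR adjusted p = 0.721).

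Rpl21, a large subunit protein, was measured more tightly. It had 279.7, 306 and 296 CPM in MIA LPS libraries and 293 in the batch 2 library, against 204, 280.4, 224, 275 and 258 in MIA saline, and 244, 214, 275, 251 and 295 in control LPS against 162 to 346, with a median of 215, in control saline. The groups overlapped, and the intervals of 2 SE around its log2 fold changes, -0.11 to 0.60 in MIA and -0.18 to 0.42 in control offspring, lay below the values of Rps2 and Rpsa.

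Rpl30, a large subunit protein, had 142, 210.1 and 194 CPM in MIA LPS libraries and 237 in the batch 2 library, against 121, 181, 151, 184 and 160.1 in MIA saline. It had 158, 141, 188, 172 and 177 CPM in control LPS libraries, against 101 to 191, with a median of 143, in control saline. The groups overlapped in both, at 0.19 ± 0.18 in MIA and 0.17 ± 0.15 in control offspring, neither called.

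Rps21, a small subunit protein, had 66.3, 94.1 and 81.4 CPM in MIA LPS libraries and 104 in the batch 2 library, against 40.9, 84.8, 75.1, 80.5 and 87.0 in MIA saline. It had 70.6, 45.8, 75.1, 44.1 and 88.2 CPM in control LPS libraries, against 24.99 to 119, with a median of 48.1, in control saline. These groups overlapped widely, at 0.13 ± 0.39 in MIA and 0.13 ± 0.33 in control offspring, so a rise of the size of the members' median was not detectable for this gene.

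The 6 paralogs and variant copies differed among themselves. Rps27l, a paralog of Rps27 that p53 induces in human cells, had 19.9, 28.2 and 30.1 CPM in MIA LPS libraries and 51.4 in the batch 2 library, against 8.06, 14.7, 9.04, 13.4 and 11.7 in MIA saline. Control LPS libraries had 24.6, 17.8, 31.5, 22.8 and 21.2 CPM, against 7.61 to 14.8, with a median of 11.5, after saline. The groups were apart, and Rps27l rose by 1.20 ± 0.22 in MIA offspring (edgeR adjusted p = 0.000118) and 1.04 ± 0.19 in control offspring (edgeR adjusted p = 6.63e-05).

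Set against Rps27 within each library, a measure that library scaling does not touch, Rps27l made up 17.5% to 23.2% of the counts of the pair in MIA LPS libraries of batch 1, against 8.14% to 11.5% in MIA saline libraries. In control offspring it made up 15.7% to 25.4% after LPS, with a median of 20.6%, against 9.66% to 15.9%, with a median of 12.9%, after saline. The MIA groups did not overlap and the control groups overlapped at their edges. Whether the responses of Rps27l and Rps27 differ was not tested.

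Rpl22l1, the paralog of Rpl22, which in mice represses it, had 43.2, 44.1 and 48.3 CPM in MIA LPS libraries and 33.2 in the batch 2 library, against 34.7, 41.9, 34.5, 43.7 and 31.1 in MIA saline. Control offspring had 43.9, 32.6, 65.1, 34.2 and 43.6 CPM after LPS, against 21.3 to 39.2, with a median of 29.2, after saline. Both comparisons overlapped. It rose in control offspring by 0.56 ± 0.16 (edgeR adjusted p = 0.00502) and was not called in MIA offspring, at 0.28 ± 0.19 (edgeR adjusted p = 0.255). The difference between these responses was -0.28 ± 0.25 and was not called either (edgeR adjusted p = 1.00, unadjusted p = 0.267). Its share of the counts of the Rpl22l1 and Rpl22 pair was 47.3% to 52.1% in MIA LPS and 44.8% to 54.5% in MIA saline, and 47.5% to 59.5% in control LPS and 45.5% to 50.2% in control saline.

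Rpl36al, a near copy of Rpl36a, had 79.5, 56.4 and 92.5 CPM in MIA LPS libraries and 89.5 in the batch 2 library, against 41.6, 56.8, 45.9, 56.6 and 69.5 in MIA saline, and was not called there (0.49 ± 0.24, edgeR adjusted p = 0.113). It had 65.7, 47.1, 100.4, 63.7 and 81.2 CPM in control LPS libraries, against 28.5 to 68.7, with a median of 42.7, in control saline, and rose by 0.62 ± 0.20 (edgeR adjusted p = 0.0153), a call that was lost without control LPS replicate 3 (0.45). The groups overlapped in both, and reads of the pair may be shared between the copies. Rpl7l1, a paralog of Rpl7 that acts in assembly of the large subunit, had 35.4, 20.7 and 37.8 CPM in MIA LPS libraries and 51.8 in the batch 2 library, against 26.9, 27.5, 17.7, 20.3 and 26.2 in MIA saline. It had 31.1, 32.7, 31.8, 31.6 and 25.2 CPM in control LPS libraries, against 17.7 to 31.6, with a median of 23.1, in control saline. These groups overlapped too, at 0.40 ± 0.19 in MIA offspring and 0.36 ± 0.16 in control offspring, neither called.

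Rpl39l and Rps27rt were near the detection limit. Rpl39l, a paralog of Rpl39 known from male germ cells of the mouse, had 15, 27 and 30 counts in MIA LPS libraries (1.27, 1.95 and 1.98 CPM) and 28 in the batch 2 library (3.36 CPM), against 7, 7, 1, 4 and 8 counts in MIA saline libraries, at most 0.613 CPM. Control offspring had 19, 6, 1, 7 and 2 counts after LPS, at most 1.03 CPM, against 2 to 13 counts after saline, at most 0.733 CPM. In CPM the MIA LPS libraries lay above all others, and Rpl39l rose by 2.08 ± 0.66 in MIA offspring (edgeR adjusted p = 0.0142) while it stood at 0.17 ± 0.59 in control offspring (edgeR adjusted p = 0.843). The difference between these responses was 1.91 ± 0.90, at an unadjusted p of 0.0444, and was not called (edgeR adjusted p = 1.00). The call in MIA offspring was lost without MIA LPS replicate 3 (1.95). Rpl39l passed the expression filter only because the MIA LPS libraries, where it was highest, were counted. Its call and its p-values in comparisons that involve MIA LPS are therefore not independent of that selection. Rpl39 had many more reads, and Rpl39l made up 0.897% to 1.22% of the counts of the pair in MIA LPS libraries, against 0.0510% to 0.881% in MIA saline. It made up 0.0579% to 0.763% in control LPS and 0.124% to 1.44% in control saline, so by this share a control saline library stood above every MIA LPS library. Rps27rt, a retrotransposed copy of Rps27, had 1.77, 3.18 and 1.45 CPM in MIA LPS libraries and 2.40 in the batch 2 library, against 0.963, 1.85, 2.23, 2.06 and 2.20 in MIA saline. It had 1.41, 0.841, 1.45, 1.21 and 1.60 CPM in control LPS libraries, against 0.467 to 2.21, with a median of 1.65, in control saline. All groups overlapped, at 0.19 ± 0.45 in MIA and -0.15 ± 0.39 in control offspring. The sources used here do not say how reads of close copies were shared, so values of Rpl39l and Rps27rt are uncertain. Named pseudogenes held more than 10% as many counts as their parent for 6 members, Rpl31 (43.3%), Rpl27 (23.1%), Rpl15 (18.4%), Rps23 (15.6%), Rps12 (13.4%) and Rpl28 (12.6%), which were named here for that reason after their values were seen.

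The members moved together from library to library as well as with LPS. Across the 19 batch 1 libraries, with group means taken out, the median correlation between any 2 of the 77 subunit and stalk proteins was 0.81 (Pearson, log2 CPM, a description over libraries that share depth and scaling). Per library, the median deviation of the members (log2 CPM) from their mean over libraries was set beside the contrast between short and long transcripts among other genes, that is, the median deviation of 1758 other genes with transcripts of at most 1000 bases minus that of 3602 genes with at least 4000 bases. That contrast was 0.01 to 0.22 (log2) in MIA LPS libraries, -0.18 to 0.02 in MIA saline, -0.05 to 0.19 in control LPS and -0.29 to 0.18 in control saline. Control saline replicate 5, the control saline library of highest member share, had the highest contrast of its group, and the part of this contrast in the members' response was not tested by itself. Short transcripts as a class stood at a median log2 fold change of 0.12 in MIA offspring and 0.08 in control offspring, below the members' 0.61 and 0.57. With each library's trend on transcript length taken out, 55 members were called higher in MIA offspring and 60 in control offspring, with medians of 0.55 and 0.48, and 51 of the 51 and 57 of the 58 original calls were kept.

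**Figure D4:**
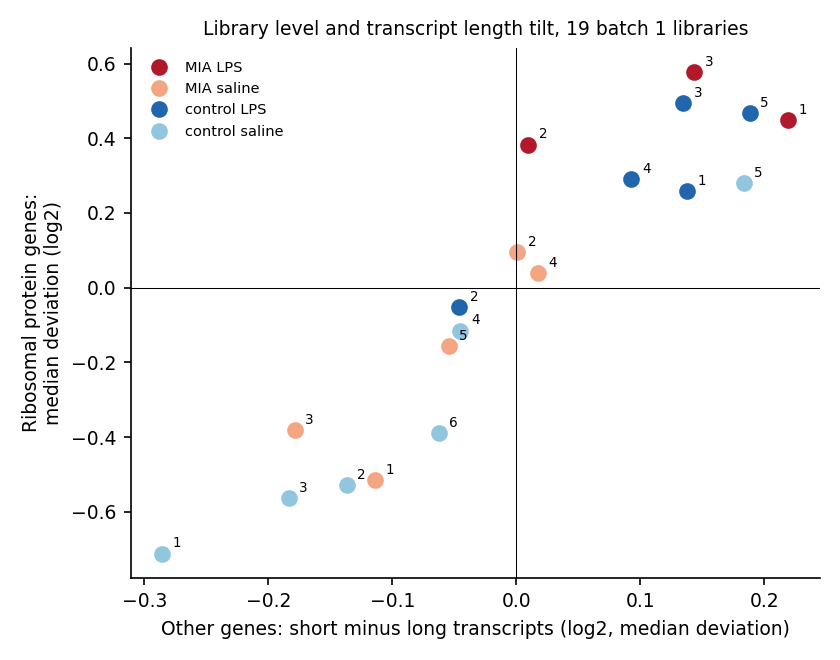
Median deviation of the 84 members from their mean over batch 1 libraries (log2, vertical) against the short minus long transcript contrast of other genes (log2, horizontal), 1 point per library with its replicate number. Libraries with more short-transcript signal hold more ribosomal protein signal, and control saline replicate 5, at 0.18 on the horizontal axis, lies among the LPS libraries.

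Over the 83 members other than Rps19bp1, the correlation of log2 fold change with log2 transcript length was 0.17 in both maternal groups, and with log2 level in saline -0.21 in MIA and 0.14 in control offspring (Pearson, across genes, which are not independent). The share of called genes differed by length class: 8 of 19 members under 500 bases were called in MIA offspring and 10 of 19 in control offspring, against 30 and 34 of 46 members of 500 to under 1000 bases and 13 and 14 of 18 longer members. The median SE was 0.27 in MIA and 0.23 in control offspring for the shortest class, against 0.19 and 0.16 for the middle one.

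The LPS responses of MIA and control offspring, which share no library, lay close to each other gene by gene. Of the 84 members, 50 were called higher in both, 1 in MIA offspring alone (Rpl39l) and 8 in control offspring alone, and 25 in neither. The Spearman correlation of the 2 sets of log2 fold changes over the 84 members was 0.88, and Pearson's was 0.77, or 0.95 without Rpl39l (across genes, as a description). The responses differed by less than 0.2 in 77 of 84 members, with a median absolute difference of 0.07. Over all genes tested, 20.8% were called higher in MIA offspring and 23.3% in control offspring. The overlap of calls, the correlations and the differences are not given here for all genes. The closeness of the responses is therefore not shown to be particular to these members. The difference of responses itself was called for 0 of 84 members by edgeR, where 0.0% of all genes were called and 3.33% were at an unadjusted p under 0.05. At that unadjusted level there was 1 member, Rpl39l, which passed the filter only through the MIA LPS libraries. DESeq2 and limma-voom also called 0 members. Next in order of p were Rpl22l1 at -0.28, Rpl6 at 0.22 ± 0.23, Rpsa at 0.27 ± 0.31 and Rpl11, which with Rpl5 binds Mdm2 outside the ribosome, at 0.21 ± 0.25, while Rpl5 stood at -0.17 ± 0.24. For Rpsa the interval of 2 SE was -0.35 to 0.90, so a difference of moderate size in either direction was not detectable with these libraries.

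**Figure D5:**
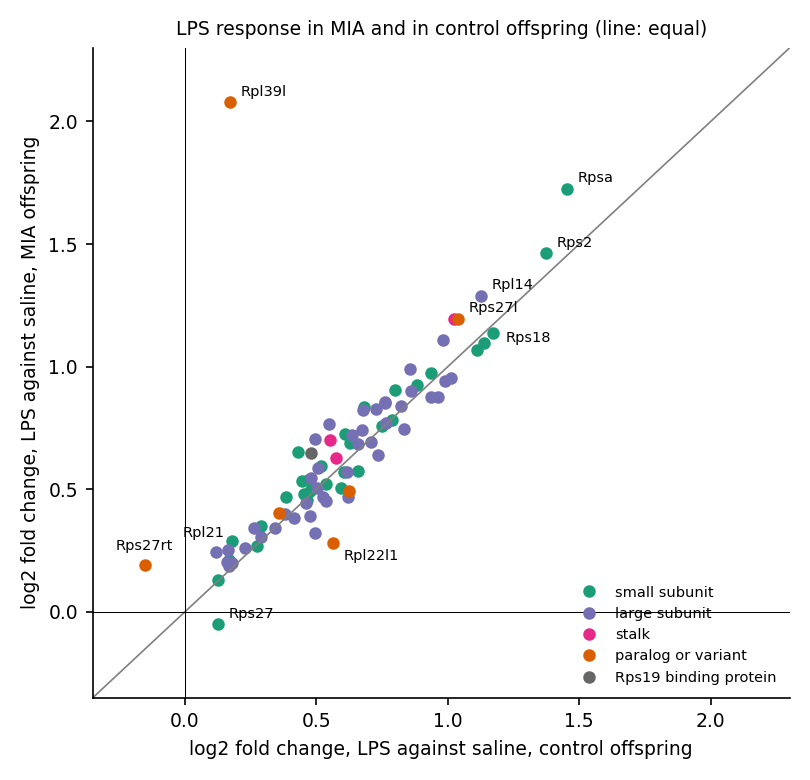
Log2 fold change of LPS against saline in MIA offspring (vertical) against the same in control offspring (horizontal) for the 84 members, coloured by role, with the line of equal response. Points follow the line, with 77 of 84 within 0.2 of it, and Rpl39l stands off at 2.08 in MIA and 0.17 in control offspring.

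Without LPS, MIA and control offspring were compared in saline libraries. Of the 84 members, 0 were called by edgeR, where 0.0% of all genes were called, and 1 was at an unadjusted p under 0.05, where 2.81% of all genes were. DESeq2 and limma-voom called 0 members too, with 1 and 2 at an unadjusted p under 0.05. The log2 fold change was above 0 in 80 of 84 members, against 48.1% of all genes, and its median was 0.13, against -0.01 over all genes. The smallest p was that of Rpl22l1, at 37.2 ± 5.36 CPM (SD, n = 5) in MIA saline and 29.6 ± 5.81 (SD, n = 6) in control saline, a log2 fold change of 0.33 ± 0.16 (edgeR adjusted p = 1.00). Rps28 stood at 0.47 ± 0.28, Rpl39 at 0.38 ± 0.22 and Rps27 at 0.39 ± 0.25. The size of this median rested on single libraries in both directions. Without MIA saline replicate 2 it was 0.048, and without MIA saline replicate 4 or control saline replicate 1 or 2 it was 0.077 to 0.080, with 0 members at an unadjusted p under 0.05 in each. Without MIA saline replicate 1 it was 0.20, with 5 such members, and without control saline replicate 5 it was 0.28, with 24. No member was called in any of these. The shares of all genes at that unadjusted level in these fits are not given here, so the counts of 5 and 24 have no background beside them. The short minus long transcript contrast averaged -0.07 ± 0.08 (SD, n = 5) in MIA saline and -0.09 ± 0.16 (SD, n = 6) in control saline.

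After LPS, the comparison of MIA with control offspring again called 0 of 84 members by edgeR, DESeq2 and limma-voom, where edgeR called 0.0% of all genes. At an unadjusted p under 0.05 there was 1 member by edgeR, where 5.59% of all genes were, and 1 by DESeq2 and 4 by limma-voom. The log2 fold change was above 0 in 82 of 84 members, against 50.3% of all genes, with a median of 0.17, against 0.00. That median was 0.092 without control LPS replicate 2. Rpl39l had the smallest p, at 1.94 ± 0.65 (edgeR adjusted p = 0.716), but it passed the filter only through the MIA LPS libraries. Next was Rpl14 at 0.29 ± 0.16, with 283 ± 45.8 CPM (SD, n = 3) in MIA LPS and 232 ± 31.2 (SD, n = 5) in control LPS. Rps6, the substrate of the S6 kinases, stood at 0.26 ± 0.16. Every MIA LPS library lay above every control LPS library in 2 of 84 members, Rpl39l and Rps3a1 (the second named after its values were seen), where this held for 1.28% of all genes. The members share library scaling and the trends above, so the 80 and 82 positive values are not separate observations.

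Other genes of the translation machinery, and other genes whose mRNAs carry a TOP motif, were taken as lists. They are to be read against the 20.8% of all genes called higher and 18.3% called lower in MIA offspring, and the 23.3% and 21.3% in control offspring. Of 19 other genes whose mRNAs carry a TOP motif, 14 rose and 0 fell in MIA offspring, with a median of 0.66, and 14 rose and 0 fell in control offspring, with a median of 0.54. They included the elongation factor subunit Eef1g (1.32 ± 0.19 in MIA and 1.29 ± 0.16 in control), Rack1, a scaffold protein on the small subunit (1.14 ± 0.19 and 0.89 ± 0.16), the RNA-binding protein Hnrnpa1 (0.92 ± 0.12 and 0.83 ± 0.10) and Vim, the intermediate filament vimentin (4.03 ± 0.58 and 2.98 ± 0.47). Fau, which encodes a ribosomal protein and falls outside the symbol rule, is named for that reason and was not called, at 0.21 ± 0.23 in MIA and 0.26 ± 0.19 in control offspring.

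Of 30 initiation factor genes, 20 rose and 1 fell in MIA offspring, with a median of 0.65, and 21 rose and 0 fell in control offspring, with a median of 0.64. Eif6, which keeps the subunits apart until the large one is mature, rose by 1.30 ± 0.16 and 1.20 ± 0.14, and the helicase Eif4a1 by 1.23 ± 0.16 and 1.10 ± 0.13. Of 10 elongation and termination genes, 5 rose and 2 fell in MIA offspring, with a median of 0.57, and 6 rose and 2 fell in control offspring, with a median of 0.48. Eif5a, which relieves stalled ribosomes, rose by 1.98 ± 0.20 and 1.67 ± 0.17, and Eef2k, the kinase that inhibits elongation factor 2, fell by 1.84 and 1.78 on the log2 scale.

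Of 15 genes of the mTOR and Larp1 pathway, 6 rose and 2 fell in MIA offspring, with a median of 0.11, and 7 rose and 1 fell in control offspring, with a median of 0.42. The translation repressor Eif4ebp1 rose by 1.95 ± 0.21 and 1.93 ± 0.18, the transcription factor Myc by 1.32 ± 0.23 and 1.70 ± 0.20, and Larp1 by 1.09 ± 0.15 and 1.11 ± 0.12. The lower calls of this list and of the elongation list are few and make up shares of their lists near or below those of all genes. Rptor, the mTOR complex scaffold, fell by 0.43 and 0.50 on the log2 scale. Of 78 genes for proteins of the mitochondrial ribosome, a separate complex, 41 rose and 0 fell in MIA offspring, with a median of 0.51, and 41 rose and 0 fell in control offspring, with a median of 0.47. Mrps18b rose by 1.79 ± 0.27 and 1.67 ± 0.23 and Mrpl12 by 1.37 ± 0.22 and 1.17 ± 0.19. In the difference of responses, 0 genes of these 5 lists were called by edgeR, and 0 were at an unadjusted p under 0.05.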

How the data were processed

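The deposited table gives estimated counts per gene, not normalized by the authors, for 21 libraries. The submitters' processing notes list STAR, RSEM and DESeq2 but neither their versions nor what each did. The build of the genome is not given in the sources used here. Libraries were made from sorted cells with a modified Smart-Seq2 protocol primed at the poly(A) tail, per the labels' protocols. Molecular identifiers are not mentioned there, so counts need not be independent molecules. Of the values, 6.27% were not whole, and all were rounded before count tests. Symbols, transcript lengths and roles came from GENCODE M21 (GRCm38), which held 55227 of the 55487 identifiers. For a gene with several transcripts the shortest principal one gave the length.

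Genes were tested with edgeR's quasi-likelihood test (edgeR 4.0.16, R 4.3.3, robust, TMM scaling) with 1 mean per group plus batch on 20 libraries, with 15 residual degrees of freedom. edgeR's filterByExpr (count minimum 10, total minimum 15) left 14741 genes. Calls are Benjamini-Hochberg adjusted p under 0.05 over all of them. An SE is the log2 fold change over the square root of the F statistic. Group means are TMM-scaled CPM over batch 1, and cell type sums are relative to total counts. log2 levels used a pseudocount of 0.5. The fit was tested on simulated counts with known changes. No test was made over the members as a list. Alternatives used DESeq2 1.42.0 and limma 3.58.1, other scalings, filters, blocks and left-out libraries.

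Named members were, in each LPS comparison, the 10 largest rises among called members, in the other comparisons the 10 smallest adjusted p, the 5 highest and 5 lowest levels per length, the paralogs and the stalk proteins, with any exception said beside it; some items that the rule would name are not reported here. Values in every library are given for the 3 largest rises, the lowest log2 fold changes, the paralogs and members of highest level. Members and lists were chosen with earlier results of these data known. Sequences are from RefSeq, build GRCm38.p6.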

Additional observations from a re-analysis of the deposited data

Results flagged for a closer look

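In groups of 4 to 10 libraries, the gap between an extreme library and its nearest neighbour was set against the range of its group for the members shown by library and for their summed level and share. Of 63 groups examined, 2 passed Dixon's 95% critical value, and chance passes about 1 in 20. Rps21 was low in MIA saline replicate 1, at 40.9 CPM, where the other 4 MIA saline libraries held 75.1 to 87.0. Rpl7l1 was low in control LPS replicate 5, at 25.2 CPM, where the other 4 control LPS libraries held 31.1 to 32.7. Neither gene was called in any comparison.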

How the results depend on the processing

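The direction of the members as a family held in each of the 34 alternatives, with 0 members called lower in any of them, and 33 of the 51 calls in MIA offspring and 47 of the 58 in control offspring held in all. Leaving out 1 library at a time gave 34 (without MIA LPS replicate 3) to 55 members called higher in MIA offspring, with medians of 0.52 to 0.67, and 51 to 70 (without control saline replicate 5) in control offspring, with medians of 0.50 to 0.73. The other settings gave 40 (upper quartile scaling) to 62 (replicate block) in MIA offspring and 53 (RLE scaling) to 64 (limma-voom) in control offspring. DESeq2 called 47 and 54, and the libraries of batch 1 alone gave 48 and 58. Another scaling moved the median of all genes by at most 0.09 on the log2 scale.

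The correlation of the deviations of same-numbered libraries was over 0.1 in 10 of 24 pairs, with a median of 0.06. Libraries with unlike numbers were not compared, so these values cannot say whether the numbers pair the samples. With the replicate block, 62 members were called higher in MIA offspring (median 0.76) and 61 in control offspring (median 0.61), and 51 of 51 and 57 of 58 of the calls were kept. In the comparison of MIA with control offspring after LPS, 14 members reached an unadjusted p under 0.05 with the block, against 1 without it, the median was 0.30, against 0.17 without it, and 0 were called. Without the block 5.59% of all genes were at that level. The share of all genes with the block is not given here, so the count of 14 has no background beside it. For libraries that share the number in their ID label, the correlation of deviations was over 0.1 in 3 of 10 pairs, with a median of 0.06. With that number as a block, 51 members were called higher in MIA offspring (median 0.58) and 57 in control offspring (median 0.59), and with it as a random effect in limma-voom 55 and 62.

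Among single members, uncalled values near 0 changed sign, and the cause was not tested. Rps27 in MIA offspring stood at 0.13 with the replicate block and at -0.27 to 0.12 with 1 library left out, and in control offspring at -9.72e-05 to 0.33 with 1 library left out. Rps21 in MIA offspring ranged from -0.020 to 0.25 with 1 library left out. Rps27rt in MIA offspring stood at -0.12 with limma-voom and at -0.21 to 0.39 with 1 library left out, and in control offspring at 0.084 with the replicate block, 0.012 with the ID number as a random effect and -0.34 to 0.017 with 1 library left out. Rpl39l in control offspring stood at -0.63 with the ID number as a block, -0.0064 with the length trend removed and -0.45 to 0.46 with 1 library left out. At a minimum count of 50, Rpl39l and Rps27rt were not tested. Rpl39l had at most 30 counts in any library of batch 1. Intervals in the text are 2 SE of the fit on either side of the log2 fold change. They describe the uncertainty of a difference of group means, as judged from the spread among libraries, and not the range of single libraries.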
